A study of Homo sapiens with 6 samples.

Results

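The A_33 probes are the catalogue oligonucleotides on this Agilent array whose identifiers begin with A_33_P. They were chosen by identifier alone, and no signal entered the choice. There were 12152 of them among the 75149 non-control probes, or 16.2%. All 12152 were found both in the series table and among the non-control spots of the scanner files. The other probes fall into name classes as well: 17465 catalogue probes beginning A_23, A_24 or A_32, 4618 beginning A_19 or A_21, 38141 probes beginning with the letter p and 2773 beginning with RNA. The files do not pair A_33 identifiers with genes and hold no probe sequences, so the probes are described by identifier and signal, and the epithelial identity of the cells could not be checked by marker genes.

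On an oligonucleotide array, labelled cDNA hybridizes to complementary probes fixed to the slide, and the brightness of a spot follows the amount of matching transcript together with how well that probe binds. Brightness is therefore compared here for a probe between samples, while brightness between probes or name classes describes the probes and not the abundance of transcripts. In a 2-colour array, RNA from a pair of samples carries different dyes (Cy3, green, and Cy5, red) and competes on the same spots.

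The study asked which transcripts changed when the long noncoding RNA Epist was overexpressed in KYSE30, an established cell line of esophageal squamous cell carcinoma. The control group was KYSE30 carrying the control vector, called empty in the series' design text (3 samples, Cy3), and the Epist group was KYSE30 carrying the Epist sequence in the same lentiviral vector (3 samples, Cy5). That vector, pCDH-MSCV-MCS-EF1-GFP+Puro, also encodes GFP and puromycin resistance, so both groups share the vector and the line, and both were made from a single cell line. Whether each line is a pool or a clone is not given in the sources used here. Per the study's methods, puromycin and GFP served to select the transduced cells, and the 3 replicates per group are biological replicates per the labels. Each array held 1 control and 1 Epist sample, and every Epist sample was Cy5, so that dye and construct cannot be told apart in any comparison between the groups. The precision is limited by the number of arrays, 3.

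Every A_33 probe was printed in 2 spots per array, 24304 spots in all. The A_23, A_24 and A_32 probes and the A_19 and A_21 probes also had 2 spots each, whereas 23442 of the p probes and 2166 of the RNA probes had 3. No A_33 spot was saturated in either channel, and only 0.0199% of spot readings were marked as outliers by the scanner software and left out. That share was 0.0210% for the A_23, A_24 and A_32 probes, 1.40% for the p probes and 1.54% for the RNA probes. No A_33 probe was without a value.

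Most A_33 probes gave signal in these cells. A probe was counted as detected in a sample where at least 50% of its spots were marked well above background by the scanner software. In the control samples 8707, 8705 and 8754 A_33 probes were detected (71.7%, 71.6% and 72.0%), and in the Epist samples 9609, 9855 and 9951 (79.1%, 81.1% and 81.9%). The groups did not overlap, with means of 71.8% ± 0.228 for control and 80.7% ± 1.45 for Epist (SD, n = 3 each). The difference of 8.91 percentage points had p = 0.1 by the two-sided exact permutation test, the smallest p that 3 against 3 samples can give. It was not particular to A_33, since the same difference was 11.4 points for all other probes. For the A_23, A_24 and A_32 probes it was 6.70 points.

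The level at which a spot counted as detected differed between the dyes, and since dye and construct cannot be told apart, neither can their parts in the Epist excess. The dimmest non-control spot called well above background had a processed signal (background-subtracted and dye-normalized by the scanner software) of 40.2, 38.4 and 37.1 in Cy3 but 20.3, 17.2 and 15.2 in Cy5. The median over 600 negative control spots was 8.23, 7.83 and 7.74 in Cy3 and 4.29, 3.62 and 3.21 in Cy5. When the same level was asked of both dyes, a processed signal over 32, the shares of A_33 probes were 71.9%, 71.7% and 71.8% in control and 72.4%, 72.5% and 72.4% in Epist. The difference was then 0.634 points, and 0.362 points at a signal over 64, each again with exact permutation p = 0.1. For all other probes these differences were 0.778 and 0.247 points. The median processed signal of the A_33 probes was 147.8, 142.4 and 146.3 in the control samples and 149.2, 146.7 and 147.9 in the Epist samples. These signals had been normalized between the dyes, which sets the groups to like levels.

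Across the 6 samples, 8270 A_33 probes (68.1%) were detected in every sample and 1783 (14.7%) in none. On all 3 Epist arrays but not on all 3 control arrays there were 1126 (9.27%), while the opposite pattern held for 1 probe. The first pattern was array-wide. It held for 11.3% of all other probes and 6.98% of the A_23, A_24 and A_32 probes, and the opposite one for 11 of all other probes. Among the 1126, 460 were detected in no control sample, or 3.79% of the A_33 probes, where the share was 5.60% of all other probes. The median processed signal of these 460 was 21.6, 20.5 and 20.95 in the control samples and 25.7, 25.6 and 25.9 in the Epist samples, which in both groups is under the dimmest detected Cy3 spot. Their median normalized log2 fold change was 0.27, 72.8% lay within 0.5 of 0, and 28 (6.09%) were at least 2-fold higher, a share that was 2.91% over all probes of this pattern. These values are a description, since the probes were picked by their Epist reading.

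Compared with the other name classes, A_33 probes were detected more often than the rest of the array but less often than the A_23, A_24 and A_32 catalogue probes. Against all other probes the excess was 15.0 percentage points in the control samples (SD 0.200, n = 3) and 12.5 in the Epist samples (SD 0.257, n = 3). By the scanner software's flag for positive and significant signal, this excess was 11.1 points in control and 7.75 in Epist. Against the A_23, A_24 and A_32 probes the difference was -5.54 points in control (SD 0.0949) and -3.33 in Epist (SD 0.489). It was 24.7 and 20.0 points above the p probes, 19.6 and 16.9 above the A_19 and A_21 probes, and 4.21 and 1.87 above the RNA probes. Each of these 5 differences had the same sign on all 3 arrays, with p = 0.25 by the two-sided exact sign-flip permutation test over arrays, the smallest that 3 arrays can give.

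Detection is itself a threshold on signal, so the classes were also set side by side at equal brightness. When the other classes were given the same distribution of mean signal as the A_33 probes, in bins of 1 log2 unit, the difference from all others lay between 0.833 and 1.77 points in the 6 samples (exact permutation p = 0.25). The rule on spots is not the same for these classes, since 1 of 2 spots is enough for an A_33 probe but 1 of 3 is not for most p and RNA probes. Against the A_23, A_24 and A_32 probes, which have 2 spots as well, it lay between -0.320 and 0.131 points (exact permutation p = 1). By bin, 8.84% of A_33 readings in control and 31.8% in Epist were detected at a mean log2 signal of 3 to 4, 15.4% and 90.0% at 4 to 5, and 79.1% and 100.0% at 5 to 6. The corresponding values of all other probes were 4.87% and 22.8%, 9.98% and 87.0%, and 70.2% and 99.8%. From 6 log2 units upward nearly every A_33 probe was detected in both groups (99.9% in control at 6 to 7).

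The brightness itself was spread widely. After quantile normalization (which gives all 6 samples the same distribution of values), the median log2 signal of the A_33 probes was 7.20, 7.18 and 7.20 in the control samples and 7.20 in each Epist sample. Averaged over samples, single A_33 probes ranged from 2.37 to 16.86, with the middle 50% between 4.52 and 9.44 and 5% of them above 12.24. The class median of this average was 7.20, against 8.0 for A_23, A_24 and A_32, 6.78 for RNA, 5.13 for A_19 and A_21, and 4.95 for p. The A_33 median was above that of all other probes by 1.33 log2 units (SD 0.0077 over arrays; 0.82 after normexp, loess and Aquantile) and below that of the A_23, A_24 and A_32 probes by a difference of -0.81 (SD 0.012), each with exact sign-flip permutation p = 0.25. At the top of the range, 717 A_33 probes (5.90%) had a mean log2 signal over 12. A_33 probes made up 231 of the 1000 brightest probes, or 23.1% against their 16.2% of all probes. This was not particular to A_33. The A_23, A_24 and A_32 probes made up 35.5% against 23.2% of all probes, and the RNA probes 6.4% against 3.69%. The p probes (31.2% against 50.8%) and the A_19 and A_21 probes (3.8% against 6.15%) were under their shares.

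Within the A_33 class the identifiers form 2 runs of serial numbers, a dense one of 11343 probes from 3208951 to 3429864 and a sparse one of 809 probes from 3430391 to 3901921. Probes of the sparse run were detected less often. Their share was 64.6% in control (SD 0.865) and 74.5% in Epist (SD 1.42), against 72.3% (SD 0.210) and 81.1% (SD 1.46) in the dense run (n = 3 each). The difference was -7.13 points over arrays, between -8.54 and -6.42 in single samples (exact sign-flip permutation p = 0.25). Their median log2 signal was lower too, 6.62 against 7.24.

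Replicates of 1 group lay close together for most A_33 probes. The SD of the normalized log2 signal over the 3 replicates, pooled over both groups, had a median of 0.158 over all A_33 probes and 0.145 over those tested for change. It depended on brightness: the median was 0.528 at a mean log2 signal of 3 to 4, 0.362 at 4 to 5, 0.226 at 5 to 6, 0.169 at 6 to 7 and 0.107 at 11 to 12. The dim A_33 probes thus carried an error several times that of the bright ones. At 2 to 3, near the floor of the scale, the median SD was 0.175. Which group spread more also depended on brightness. At 3 to 4 the median SD was 0.638 in the Cy3 control samples and 0.333 in the Cy5 Epist samples, whereas at 9 to 10 it was 0.0985 and 0.121, and the Epist value was the higher one in every bin from 7 to 14.

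At matched signal the A_33 probes were about as repeatable as the others. Their weighted median replicate SD was 0.193, against 0.188 for all other probes and 0.190 for the A_23, A_24 and A_32 probes. Of these 2 comparisons only the latter is like for like, since most p and RNA probes average 3 spots and not 2. The 2 spots of an A_33 probe on 1 array differed little as well, with a median SD of log2 processed signal between 0.0881 and 0.0986 in the 6 samples. At matched signal the difference from the A_23, A_24 and A_32 probes lay between -0.0053 and 0.0083, with both signs. From all other probes it lay between -0.0197 and -0.0088, a comparison that is not like for like because the median SD of 2 spots tends to lie below that of 3. Only 1 of the 2 spots was well above background for 3.93% to 5.14% of A_33 probes per sample.

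Few A_33 probes changed much between control and Epist. Over all 12152 the median normalized log2 fold change (Epist minus control) was 0.01, 91.5% lay within 0.5 of 0, and values ran from -2.02 to 5.66. A fold change of at least 2 was measured for 55 probes higher and 37 lower in Epist, or 0.757% of the class. The same share over all other probes was 0.755%. Nearly all of the increases, and most of the decreases, were of probes not detected in every sample, whose fold is not fully measured. Among the 8270 probes detected in all 6 samples, 1 was at least 2-fold higher and 14 were at least 2-fold lower (0.181%). Over all 41731 probes detected in all 6 samples, 14 were higher and 97 lower (0.266%).

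Without any filter on dim probes and at matched signal, the size of the change in A_33 probes lay between those of the other classes. The weighted median absolute log2 fold change was 0.168 for A_33 and 0.169 for all others. On single arrays the difference was -0.00029, 0.0054 and 0.00056 (exact sign-flip permutation p = 0.5). The A_23, A_24 and A_32 probes had 0.185, and the difference was -0.0135, -0.0115 and -0.0152 on the 3 arrays, a mean of -0.0134 (SD 0.0019, n = 3). All 3 arrays had the same sign, and p = 0.25 is the smallest the exact permutation test over arrays allows. Against the RNA probes (0.149) A_33 was larger by 0.0192, and against the p probes (0.164) by 0.0049, neither of which was tested. By prefix, the difference was -0.0154 against A_23, -0.0217 against A_24 and -0.0066 against A_32, and -0.0030 and -0.0031 against A_19 and A_21. For A_19 and A_21 the arrays had mixed signs, at -0.0176, 0.0086 and 0.0071 and at -0.0028, 0.0028 and -0.0050.

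In direction, the A_33 value lay within the range of the other classes. The weighted median of the signed log2 fold change was 0.027 for A_33, 0.030 for p, 0.045 for RNA, 0.015 for A_19 and A_21, and 0.0038 for A_23, A_24 and A_32. Between A_33 and A_23, A_24 and A_32 the per-array differences were 0.0154, 0.0321 and 0.0288 (mean 0.0255, SD 0.0088, n = 3, exact sign-flip permutation p = 0.25). By prefix, the signed difference was 0.0195 against A_23, 0.0337 against A_24 and 0.0076 against A_32, and 0.0224 and 0.0091 against A_19 and A_21. Among probes detected in all 6 samples, 2562 A_33 probes (31.0%) were higher in Epist on all 3 arrays and 2140 (25.9%) were lower on all 3. The shares were 31.3% and 24.9% in the p probes and 32% and 17.8% in the RNA probes, while in the A_23, A_24 and A_32 probes the order was the other way, with 27.5% higher and 33.2% lower on all 3. Across these 8270 A_33 probes, which are not independent replicates, the log ratios of the arrays correlated with Pearson's r of 0.53, 0.67 and 0.62 for the 3 pairs of arrays, against 0.64, 0.74 and 0.70 over the 13018 A_23, A_24 and A_32 probes. Signal and dye are shared by all the points, and no p is given.

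The test for change used limma on all 50004 probes that were detected on all 3 arrays of at least 1 group, of which 9397 were A_33 probes (77.3% of the class). With Benjamini-Hochberg adjustment over the 50004, 191 A_33 probes were called higher in Epist at an adjusted p under 0.05. That is 2.03% of those tested, where 1.81% of all tested probes were called higher. There were 204 A_33 probes called lower (2.17%), where the background was 2.83%. The higher calls were therefore near the background share and the lower calls under it. Higher and lower A_33 calls came to 124 and 124 on processed signal alone, and 109 and 100 without the filter on dim probes. They came to 67 and 65 by eBayes without the trend, and to 232 and 250 with detection in both groups. With a change of at least 2-fold added, 10 A_33 probes were higher (0.106%, background 0.0860%) and 14 were lower (0.149%, background 0.196%). These 2-fold counts were 2 and 6 after normexp, loess and Aquantile, and requiring detection in both groups left 1 higher and 14 lower. The share over all probes is not given for these other settings. Their counts therefore show only how the A_33 calls depended on processing, not how A_33 compared with the array.

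These counts depended on how the pairing on the arrays was used. With the array as a replicate block, limma called 1025 A_33 probes higher (10.9%, background 9.82%) and 935 lower (9.95%, background 10.7%), and these included all 395 calls made without it. At 2-fold, 22 were then higher (background 0.236%) and 15 lower (background 0.218%). Of these 22, 19 were detected on no control array, so their fold is not fully measured. With normexp, loess and Aquantile and the block, 2 A_33 probes were higher and 6 lower at 2-fold, a setting without a share over all probes here. Leaving out any 1 array, with both its samples, left 1 higher A_33 call (of 2 or 3 over all probes) and between 0 and 2 lower A_33 calls (of 1 to 12 over all probes) in the fit without the block. With the block it left between 493 and 1090 higher A_33 calls (5.23% to 11.5%, background 4.70% to 10.3%) and between 456 and 1033 lower (4.83% to 10.9%, background 5.84% to 11.2%). The 1090, without replicate 2, exceeded the 1025 of all arrays. With 2 arrays and the block little is left to estimate a probe's own variance, so limma leans on the variance shared over probes. Before adjustment, 1035 A_33 probes were higher (background 10.1%) and 919 lower (background 10.9%) at a limma p under 0.05, and 1886 (background 18.2%) and 1491 (background 16.9%) with the block. The methods' t-test gave 18 higher (background 0.196%) and 15 lower (background 0.210%) A_33 probes of at least 2-fold without adjustment, and 11 (background 0.114%) and 10 (background 0.170%) of any size after adjustment. The 18 and 15 became 2 and 6 with normexp, loess and Aquantile, and 1 and 14 with detection in both groups. No share over all probes is given for those settings either.

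The share of A_33 probes called lower was smaller than in the A_23, A_24 and A_32 probes, of which 688 (4.83%) were lower and 380 (2.67%) higher. In the remaining classes, 2.07% of p, 2.50% of A_19 and A_21 and 0.474% of RNA probes were called lower, so that A_23, A_24 and A_32 was the one class above the background of 2.83%. At the signal distribution of the tested A_33 probes the A_23, A_24 and A_32 shares were 4.48% and 2.41%, against 2.17% and 2.00% for A_33, a ratio of 2.06 for the lower calls and 1.20 for the higher calls. With the replicate block the lower shares were 14.9% and 9.96%, a ratio of 1.49, and the higher shares 10.99% and 10.9%. Leaving out 1 array at a time, the ratio for lower calls lay between 1.41 and 1.77 with the block. Without the block it was 0.54 without replicate 1 and 0.81 without replicate 3, from at most 2 A_33 calls, and without replicate 2 neither class had a lower call in the matched bins. By prefix, 5.04% of A_23, 5.00% of A_24 and 2.50% of A_32 probes were called lower, and 3.30% of A_19 and 2.34% of A_21. A_32 thus lay close to A_33 without the block. With it, 11.8% of A_32 probes were called lower, above the background of 10.7%, and 9.95% of A_33 probes, below it. The difference in call shares itself has no test, and what the probes of each prefix target was not available to set beside it.

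Calls among A_33 probes came mostly from bright probes. The share called in either direction rose from 1.16% at a mean log2 signal of 4 to 6 (10 higher and 10 lower of 1728) to 2.85% at 6 to 8, 4.88% at 8 to 10, 6.32% at 10 to 12 and 9.34% at 12 and above (38 higher and 29 lower of 717). Under 4, where few were tested, 1 of 43 was called (2.33%, and 3.03% of all other probes). From 4 upward the shares in all other tested probes were 1.15%, 3.39%, 6.56%, 8.44% and 11.5%. Most called changes were small, with a median log2 fold change of 0.52 over the 191 higher probes and -0.51 over the 204 lower ones. Of the higher ones 180 were detected on all 3 control arrays and 10 on none, and all 204 lower ones were detected on all 3 control arrays. In both serial runs the share called was alike, 4.20% in the dense run and 4.22% in the sparse one.

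Of the probes that could be called, 1126 A_33 probes were detected throughout Epist but not throughout control and 1 the other way round, so probes undetected in 1 group entered almost only from the control side. The rest of the array was alike in this, with 11.3% of all other probes in the first pattern and 11 probes in the second. The 10 A_33 probes called at least 2-fold higher had a median log2 signal of 5.08, and 8 of them were well above background on no control array, so that only a bound on their fold is measured. Taken against the higher of the dimmest detected signal and the probe's own reading (normalized with normexp, loess and Aquantile, open to dye bias), these 8 were at least 1.21-fold to at least 16.8-fold higher, and 1 of them passed 2-fold. The offset of 50 added in normexp lowers the folds of dim probes, so a low bound need not mean a small change. For 7 of the 8 the probe's own control reading was the higher one on all 3 arrays, so the bound equals the fold on that scale. It is still given as a lower bound, since those control readings were not well above background. The 14 probes called at least 2-fold lower had a median log2 signal of 7.93, and all 14 were detected on every control array.

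The A_33 probe with the largest increase was A_33_P3406796. Its normalized log2 signal was 5.21, 5.11 and 4.65 in the control samples and 10.93, 10.42 and 10.61 in the Epist samples. The groups were far apart relative to their spread, with means of 4.99 ± 0.30 and 10.65 ± 0.26 (SD, n = 3 each). The fitted log2 difference was 5.66 (SE 0.18, limma adjusted p = 1.02e-05), which rests on a control reading not well above background. The probe entered the test through its Epist readings alone, and without the filter on dim probes its limma adjusted p was 0.0060. None of its 6 control spot readings was well above background and all 6 Epist readings were, and the log ratios of the single spots lay between 5.19 and 6.62. By the bound above, taken against its own control reading on all 3 arrays, it was at least 16.8-fold higher in Epist. On the processed scale its control signals of 36.3, 33.7 and 23.7 lay under the dimmest detected Cy3 spot of each array, and its Epist signals were 1981, 1315 and 1580.

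The next largest increase was that of A_33_P3292854, a bright probe in both groups. Its log2 signal was 12.06, 11.96 and 12.36 in control and 13.31, 13.95 and 13.89 in Epist, so the groups did not overlap but the arrays differed in the size of the change. The log2 fold change was 1.59 (SE 0.18, limma adjusted p = 0.00624, and 0.000116 with the replicate block). The methods' t-test did not call it after adjustment over all tested probes (adjusted p = 0.0872). Without any 1 array the adjusted p rose to between 0.0622 and 0.127 in the fit without the block, above the threshold of 0.05 for each array left out, where few probes of any class were called. With the block the limma adjusted p lay between 1.07e-09 and 0.00012, and the log2 fold change between 1.39 and 1.76. A block fit on 2 arrays leaves little to estimate the probe's own variance. These p values, the smallest of them below that of all arrays, are therefore not strong evidence from 2 arrays.

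The A_33 probe with the largest decrease was A_33_P3221859, at 11.13, 11.17 and 10.89 in control and 9.22, 9.04 and 8.86 in Epist. The log2 fold change was -2.02 (SE 0.12, limma adjusted p = 0.000449), 4th among the decreases of all tested probes. It was followed by A_33_P3849275, at 10.68, 10.80 and 10.78 in control and 9.32, 9.06 and 9.15 in Epist, with a log2 fold change of -1.58 (SE 0.09, limma adjusted p = 0.000449). For both probes the groups did not overlap, and all spots were well above background in every sample. Without replicate 2 their adjusted p values in the fit without the block were 0.0626 and 0.0602, above the threshold, with log2 fold changes of -1.96 and -1.49. With the block the limma adjusted p values were 7.29e-13 and 2.31e-10 without replicate 2, and 1.01e-06 and 1.56e-05 with all arrays. The smaller values from fewer arrays are not stronger evidence. A block fit on 2 arrays leaves little to estimate a probe's own variance. Taken alone, each of these 4 probes had an exact permutation p of 0.1, the smallest possible. This adds nothing to their choice, since the groups did not overlap for any of the 191 higher and 204 lower called A_33 probes.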

How the data were processed

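Total RNA (500 ng per the labels) from 3 control and 3 Epist samples was measured on 3 arrays of 2 colours. The deposited scanner files hold spot intensity from Feature Extraction (11.5.1.1 in the file headers, where the methods name another version), background-subtracted and dye-normalized by the authors' software, with flags for spots well above background, saturated or outlying. The deposited series table holds log2 values that the authors quantile normalized with limma. The files of a control and an Epist sample were identical for 3 pairs, so each pair is the channels of 1 array. Green was read for control and red for Epist.

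Here control and outlier spots were left out, log2 processed signals were averaged over the spots of a probe and quantile normalized, and limma 3.58.1 in R 4.3.3 (lmFit, eBayes with trend, no block) was run on 50004 probes, with Benjamini-Hochberg adjustment over them. The 48 probes without a value were not used. Matched comparisons took class medians in bins of 1 log2 unit of mean signal with at least 20 probes per class, weighted by the A_33 probes. The scripts were tested on simulated data. The pairing comes from the shared array: deviations from group means correlated at 0.60, 0.63 and 0.65 for samples of the same array (0.56, 0.52 and 0.62 over A_33 probes) and below 0 for every other pair. Those negative values are largely set by centring on the group means and add nothing to the pairing.

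Named probes are the 2 largest increases and 2 largest decreases among called A_33 probes with all 3 arrays in 1 direction, because no table paired probes with genes. For the same reason the gene and marker lists could not be used. The probes and lists were chosen with earlier results of these data known. Alternatives were the array as a block, other normalizations (normexp with an offset of 50, loess and Aquantile; 75th percentile; processed signal alone; the series table), other filters and bins, outliers kept, the methods' t-test and leaving out each array.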

Additional observations from a re-analysis of the deposited data

How the results depend on the processing

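The block for the shared array (the pairing) moved the calls from 191 to 1025 higher and from 204 to 935 lower A_33 probes, and from 10 to 22 higher at 2-fold. Higher, lower, 2-fold higher and 2-fold lower calls came to 1034, 933, 2 and 6 with normexp, loess and Aquantile and the block, and the 2-fold calls to 2 and 6 without the block. Where no background share is given above for a setting, the counts in this paragraph describe the A_33 calls alone. They do not set A_33 apart from the array. Higher and lower calls came to 124 and 124 on processed signal alone, 109 and 100 without the filter on dim probes, 67 and 65 by eBayes without the trend, and 11 and 10 by the adjusted methods' t-test, with 2 and 3 at 2-fold. At matched signal the lower call shares of A_23, A_24 and A_32 at these settings were 1.99 to 2.46 times those of A_33. For higher calls they were 1.07 to 1.17 times. Requiring detection in both groups left 1 higher probe at 2-fold. Leaving out 1 array gave 1 higher and 0 to 2 lower calls (1, and 0 to 2, at 2-fold), and with the block 493 to 1090 higher and 456 to 1033 lower (20 to 28, and 17 to 24, at 2-fold), of which replicate 1 left out gave 649 and 593 (21 and 24) and replicate 2 left out gave 22 lower at 2-fold. As stated above, the block fits on 2 arrays leave little to estimate a probe's own variance. The methods' t-test with 2-fold gave 18 higher and 15 lower A_33 probes, but 2 and 6 with normexp, 38 higher without the filter and 1 higher with detection in both groups. These too are counts of A_33 probes alone, and both changes of filter also changed how many probes were tested. Without an array it gave 16 to 26 higher and 10 to 18 lower.

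At matched signal, the replicate SD of A_33 minus all others was 0.00528, against 0.00721 with bins of 0.5, 0.00335 against A_23, A_24 and A_32, 0.00242 with detection in both groups, 0.00286 with normexp, 0.00712 on processed signal and 0.00395 to 0.00665 without an array. The absolute log2 fold change difference was -0.000996 against all others, -0.0163 against A_23, A_24 and A_32 (-0.0110 with normexp, -0.0135 on processed signal, -0.0186 to -0.0150 without an array), 0.00291 on processed signal against all others and -0.00295 to 0.00306 without an array. The signed difference was 0.00818, 0.0233 against A_23, A_24 and A_32 (0.0326 over tested probes, 0.0349 with detection in both groups, 0.0200 to 0.0313 without an array), and 0.00175 to 0.0126 without an array. The detection excess over all others was 15.0 points in control (14.5 asking every spot, 11.1 by the flag for positive and significant signal, -5.54 against A_23, A_24 and A_32) and 12.5 in Epist (7.75 by that flag, -3.33 against A_23, A_24 and A_32). Epist minus control detection of A_33 probes was 8.91 points (11.4 for all other probes), 4.53 by that flag, 0.634 and 0.362 at a processed signal over 32 and over 64, and 8.44 to 9.66 without an array. The median signal difference of 1.33 was 0.82 with normexp and -0.81 against A_23, A_24 and A_32. The cause of these shifts was not tested. The call shares against A_23, A_24 and A_32, the further settings of the size and direction differences from them, the settings for Epist minus control detection and those of the t-test with 2-fold were added after seeing the data. Probes under about 6 log2 units are limited by background, with 3 arrays and no dye swap.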
